A study of Mus musculus with 2 samples.

Results

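The 8 receptors described here are G-protein-coupled receptors that steer B cells and other leukocytes into and within lymphoid tissue: Cxcr4, Cxcr5, Ccr6, Ccr9, Ccr10, Gpr183, Ccr1 and Ccr2. They were chosen by name, with older symbols allowed, so that Cxcr5 was found under Blr1 and Gpr183 under Ebi2. All 8 were on the arrays, out of 27599 gene names, and 9 of the 41174 distinct probes belonged to them, 2 for Cxcr4 and 1 for each of the others. Each of these probes was printed as 1 spot per array. RNA came from B cells that had been sorted out of the peripheral lymph nodes of Ccr7 knock-out mice (strain B6.129P2(C)-Ccr7tm1Rfor/J) and of wild-type C57BL/6J mice. The cells were sorted by flow cytometry and not cultured, the labels name no treatment, and neither the sort gate nor the age of the mice is given there. The RNA of 12 sorted samples, 6 per genotype, was combined in pools of 3, and 2 two-colour arrays each held 1 knock-out pool in one dye and 1 wild-type pool in the other, with the dyes swapped on array 2. Each array is a replicate, so n = 2, and the spread between the sorted samples cannot be seen.

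Chemokine receptors sense small secreted proteins that are displayed on vessels and stromal cells, and the order in which a lymphocyte reads them sets where it settles. In a lymph node, Ccr7 draws cells towards Ccl19 and Ccl21 around the T-cell zone, Cxcr5 draws B cells towards Cxcl13 in the follicle, and Gpr183, a receptor for oxysterols, leads activated B cells to the follicle's outer edge. Cxcr4 and its ligand Cxcl12 take part in entry from blood, in retention in bone marrow and in the dark zone of germinal centres. Ccr6, the receptor for Ccl20, is carried by naive and memory B cells. Ccr9 and Ccr10 guide cells to the gut and other epithelia, and Ccr1 and Ccr2 are best known from monocytes and other myeloid cells.

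The probes that carry the results are shown with the position that the files give on the mm8 build of the mouse genome. The files do not say which lie in coding sequence or in a UTR. Both probes of Cxcr4 lie on the minus strand of chromosome 1 with their starts 580 bases apart. The dimmer one, at chr1:130416628-130416687, has 0 stop codons in each of the 3 forward frames. The last 30 bases of the brighter one, at chr1:130416048-130416107, hold the hexamer AATAAA, in capitals, which is known as a signal for the addition of the poly(A) tail. Of all 60-base probes on the array, 4.78% hold this hexamer on the strand as printed and 8.8% on either strand, and of the 9 receptor probes 1 does. The Ccr6 probe, at chr17:8095028-8095087 on the plus strand, holds in capitals the codons of the conserved motif at the inner end of the last membrane-spanning helix. The Gpr183 probe, at chr14:121089057-121089116 on the minus strand, is set beside them as that of a bright receptor with opposite ratios on the arrays.
Cxcr4, dimmer probe: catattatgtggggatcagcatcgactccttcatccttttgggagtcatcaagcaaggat
Cxcr4, brighter probe, last bases: gtaaattgAATAAAgctagccgtgatcctc
Ccr6: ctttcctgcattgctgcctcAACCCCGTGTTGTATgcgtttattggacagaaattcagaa
Gpr183: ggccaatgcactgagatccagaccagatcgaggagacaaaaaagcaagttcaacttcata

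The targeted gene was lower in the knock-out on both arrays. The mean spot signal of Ccr7, in scanner units, was 3644 and 1751 in the knock-out channel of arrays 1 and 2, against 7236 and 6420 in the wild-type channel. The files do not say if its probe matches sequence that the targeted allele lacks. Markers fixed for B cells were all measured (10 of 10), and 9 of these 10 had a channel too bright for the scanner's normal gain. Their summed normalized intensity was 785700 and 452000 in the knock-out and 410700 and 755700 in the wild type on arrays 1 and 2, so the sum was higher in the knock-out on array 1 and lower on array 2. Pax5, a transcription factor of B-cell identity, was the 1 B-cell marker at an unadjusted p of 0.05 and the 1 lower on both arrays, with -0.79 and -0.86 and a limma adjusted p of 0.141. Of all genes, 5.97% were lower at that unadjusted p and 30% were lower on both arrays. Pax5 was 1 of the 9 markers with a channel too bright for the normal gain. Opposite signs on the arrays were seen in 7 of the 10 markers and in 8097 of all 17687 genes tested. The next by p were Cd22, with 0.20 and 0.41, and Blk, with 0.29 and 0.16. The median over the 10 markers was 0.18. The arrays had 58.4% to 68.8% of gene spots well above background per channel, and 0 spots were saturated.

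No receptor of the 8 passed the threshold, a limma p of 0.05 adjusted by Benjamini-Hochberg over the 17687 genes tested. Over all genes, 0.102% passed, 0.0678% higher and 0.0339% lower in the knock-out. The 5 receptors measured above background were Cxcr4, Cxcr5, Gpr183, Ccr6 and Ccr9, and the signals of Ccr10, Ccr1 and Ccr2 were not well above background in either genotype on either array. At an unadjusted p of 0.05, Ccr6 and Cxcr4 were higher in the knock-out (2 of 5 receptors tested, 0 lower), where 3.15% of all genes were higher and 5.97% lower by the same rule. Of the 5 receptors, 3 were higher and 0 lower in the knock-out on both arrays, against 24.2% and 30% of all genes. The median log2 ratio (knock-out to wild-type) was 0.11 over the 5 receptors and -0.01 over all genes. In sorted populations, more cells that carry a receptor and more RNA per cell cannot be told apart.

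Cxcr4, the receptor for Cxcl12, had a higher normalized level in the knock-out by both of its probes on both arrays. Before normalization this was so on array 1: the spot signals of the brighter probe were 3822 and 1494 in the knock-out and 2759 and 2298 in the wild type, and those of the dimmer one 2075 and 973 in the knock-out and 880.1 and 1183 in the wild type. After normalization the brighter probe had log2 intensities of 11.55 and 11.38 in the knock-out on arrays 1 and 2, against 11.17 and 10.91 in the wild type. The dimmer probe had 10.70 and 10.70 in the knock-out, against 9.53 and 9.97 in the wild type. In both probes the knock-out levels lay above both wild-type levels, which was so for 9.57% of all genes by their brightest probe. Both probes had ratios above 0 on both arrays, as did 25.2% of all probes. The means of the brighter probe were 11.46 ± 0.12 in the knock-out and 11.04 ± 0.18 in the wild type (SD, n = 2 each).

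The brighter probe of Cxcr4 had log2 ratios (knock-out to wild-type) of 0.37 and 0.46 on the arrays. Their mean was 0.42 ± 0.13 (SE, n = 2), which is 1.34-fold, with a 95% interval of 0.12 to 0.72. The limma p was 0.0133 and the adjusted p 0.364. This SE and every other SE of a mean ratio is the moderated one of the limma fit, as are the intervals. It draws the spread of a gene towards a value common to all genes fitted and is not the spread of the 2 ratios alone. The dimmer probe had 1.17 and 0.73, that is 2.26-fold and 1.66-fold. Its mean was 0.95 ± 0.15 (SE, n = 2) in a limma fit over 25975 probes, with a 95% interval of 0.60 to 1.31. The limma p was 0.000261 and the adjusted p 0.108. Of all probes, 0.119% passed in that fit. The direction was shared, but the probes differed in size: the dimmer probe exceeded the brighter one by 0.80 on array 1 and 0.27 on array 2, on the log2 scale. Among 5686 genes with several tested probes, 7.91% had a gap between their highest and lowest probe at least as large as the mean gap of Cxcr4, and the median gap was 0.20.

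None of the 4 channels of either Cxcr4 probe needed the low scanner gain, unlike those of the brighter receptors described further on. Without any normalization within the arrays the brighter probe had ratios of 0.47 and -0.64, and the mean turned to -0.08. That setting moved the median of all genes to -0.39, and Cxcr4 lay 0.31 above it. Of the cells that carry Cxcr4 besides B cells, the summed intensity of plasma cell markers was higher in the knock-out by 0.20 and 0.27 (log2) on the arrays, with 6 of 7 markers tested. The plasma cell sum was 51690 and 54300 in the knock-out and 45150 and 44900 in the wild type. Jchain, the joining chain of secreted IgM and IgA, was the 1 marker in it past the threshold. Xbp1, a transcription factor of secretory cells, had 0.55 and 0.85 with a limma adjusted p of 0.205, and Sdc1, a surface marker of plasma cells, had -0.13 and -1.15. Over the 6 markers 3 were higher and 2 lower on both arrays, and the median was -0.02, so sum and median differ in sign. The summed T-cell markers (9 of 11 tested) were higher in the knock-out by 0.18 and 0.04, but 5 of 9 were lower and 2 higher on both arrays, and the median was -0.03. At an unadjusted p of 0.05, 4 of 9 T-cell markers were lower and 0 higher, where 5.97% of all genes were lower and 3.15% higher. On both arrays 24.2% of all genes were higher and 30% lower. The smallest p values belonged to Thy1, with -0.93 and -0.63, the T-cell receptor chain gene Cd3d, with -0.56 and -0.63, and the interleukin receptor gene Il7r, with -0.48 and -0.51. The part of these cells in the Cxcr4 values was not tested.

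**Figure D1:**
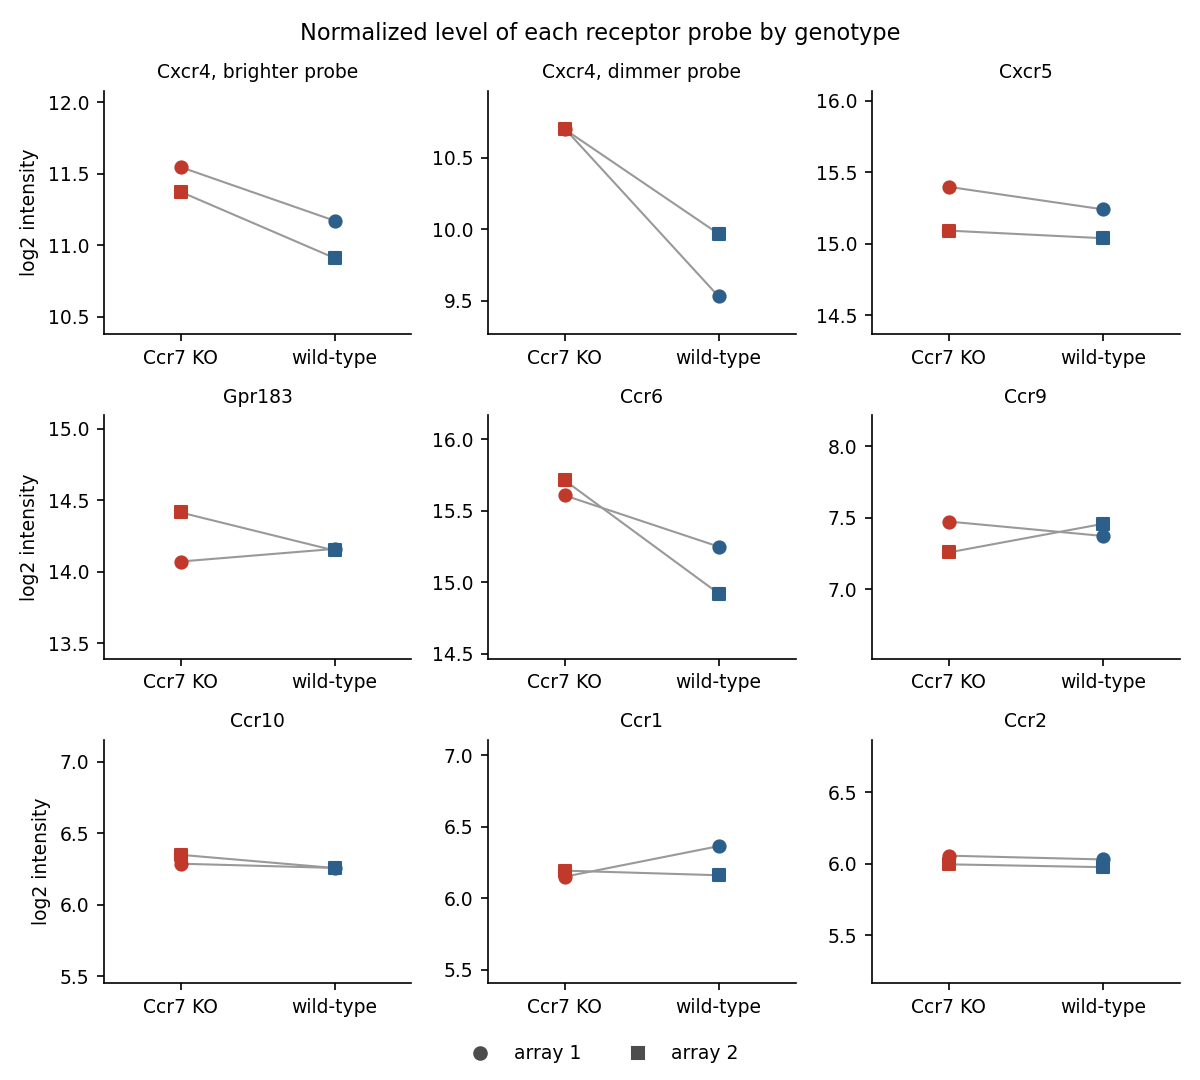
Normalized log2 intensity of the 9 receptor probes in Ccr7 knock-out (red, left) and wild-type (blue, right) channels, with circles for array 1, squares for array 2 and lines joining the channels of an array. Every panel spans the same height in log2 units. The Cxcr4 and Ccr6 probes had both knock-out points above both wild-type points, as did 9.57% of all genes tested. The Ccr10 probe did too, although it was not well above background. The points of Cxcr5, Gpr183, Ccr9, Ccr1 and Ccr2 overlapped between genotypes.

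Ccr6, the receptor for Ccl20, had the smallest p of the receptors where each gene is represented by its brightest probe. With every probe fitted, the dimmer Cxcr4 probe had a smaller one. The levels of Ccr6 were 15.61 and 15.71 in the knock-out on arrays 1 and 2, against 15.25 and 14.92 in the wild type. Both knock-out levels lay above both wild-type levels, which was so for 9.57% of all genes. The log2 ratios were 0.36 and 0.79, with a mean of 0.57 ± 0.15 (SE, n = 2). This is 1.49-fold, with a 95% interval of 0.22 to 0.93, a limma p of 0.00628 and an adjusted p of 0.31. The spot signals were 69468 and 27184 in the knock-out and 39879 and 42031 in the wild type, so before normalization the knock-out was the brighter channel on array 1 and the dimmer one on array 2.

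The scanner read the arrays at a normal and a low gain, and in all 4 channels the Ccr6 spot was too bright for the normal one, so that its value was extrapolated from the low gain. The 446 genes scaled up in this way had a median ratio of 0.41 on array 1 and -0.22 on array 2, and 68.4% of them had opposite signs on the arrays. Of the 16059 genes with no scaled-up channel, 45.0% had opposite signs. On array 1 Ccr6 was close to the median of these genes, and on array 2 it lay above it by more than their SD of 0.55. By the scanner program itself the Ccr6 ratio was 0.13 and 0.87, and the deposited value table held 0.23 and 0.78. The part of the scaling in the Ccr6 value was not tested.

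Among 48 other tested genes of the receptor, ligand and signalling lists, the 3 nearest to Ccr6 by the distance between their pairs of ratios on the 2 arrays were Ccrl2, Cxcr4 and S1pr2. Ccrl2, a chemerin-binding receptor related to the chemokine receptors, lay at a distance of 0.27, Cxcr4 at 0.33 and S1pr2, a receptor for sphingosine-1-phosphate, at 0.38. Ccrl2 had ratios of 0.33 and 0.52 by its brighter probe and 0.18 and 0.57 by its dimmer one. The other tested probe of S1pr2 gave -0.01 and -0.03, so this likeness rests on its brightest probe.

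Cxcr5 and Gpr183, the receptors that place B cells in and around the follicle, had 95% intervals of the ratio that included 0. Cxcr5 had levels of 15.40 and 15.09 in the knock-out, against 15.24 and 15.04 in the wild type. The genotypes overlapped, and the ratios were 0.16 and 0.05. The mean was 0.11 ± 0.13 (SE, n = 2), with a 95% interval of -0.20 to 0.41 and a limma adjusted p of 0.912. Differences of up to 0.41 upwards lie within the interval, so equal expression is not shown.

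Gpr183 had levels of 14.07 and 14.41 in the knock-out, against 14.16 and 14.15 in the wild type. The knock-out was the lower genotype on array 1 and the higher one on array 2, with ratios of -0.09 and 0.27. The mean was 0.09 ± 0.14 (SE, n = 2), with a 95% interval of -0.25 to 0.43 and a limma adjusted p of 0.951.

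For both genes the knock-out channel of array 2 was read at the normal gain and the other 3 channels were scaled up. The 717 genes with this pattern had median ratios of -0.03 on array 1 and -0.02 on array 2. The direction of the Cxcr5 ratio on array 1 depended on the program: it was -0.17 by the scanner program and -0.03 in the deposited value table. On array 2 these sources gave 0.19 and 0.10. For Gpr183 they gave the same values, -0.05 and 0.22 on the arrays.

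**Figure D2:**
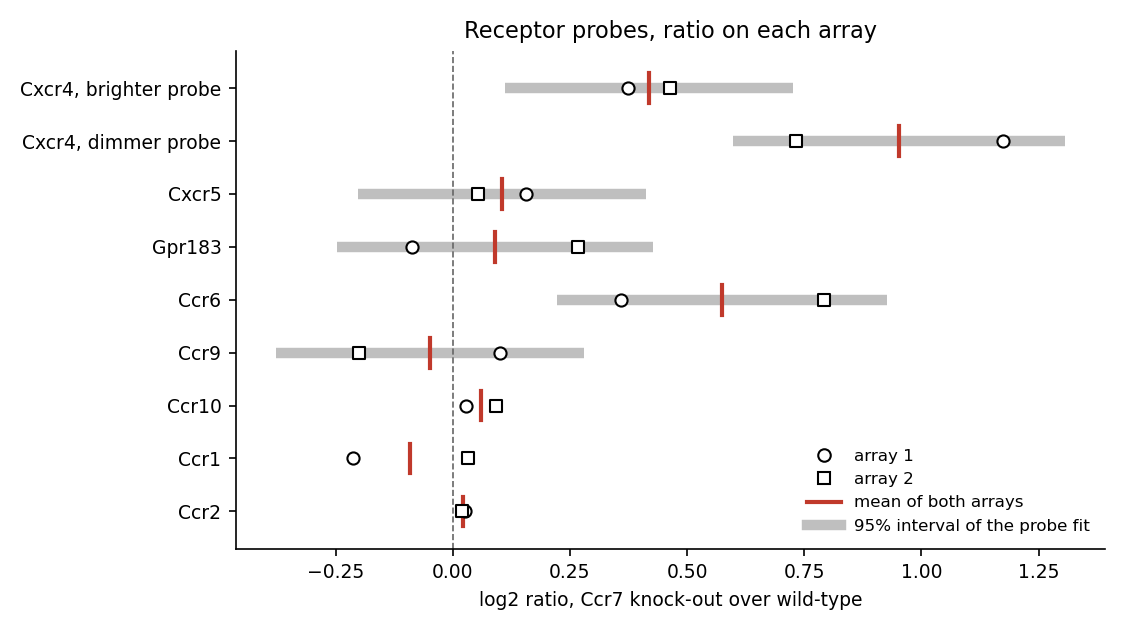
Log2 ratio (knock-out to wild-type) for each receptor probe on array 1 (circle) and array 2 (square), with the mean as a red bar and, for probes that were tested, the 95% interval of the fit over all probes in grey. The intervals of both Cxcr4 probes and of Ccr6 lay above 0, and those of Cxcr5, Gpr183 and Ccr9 included it. Ccr10, Ccr1 and Ccr2 were not well above background and have no interval.

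Ccr9, the receptor for the gut chemokine Ccl25, was dim but measured in both genotypes. Its spot signals were 214 and 137 in the knock-out and 198 and 199 in the wild type, with local backgrounds between 50 and 57 in the knock-out and between 51 and 55 in the wild type. The highest of 153 negative control spots in these channels was 143.9 and 100.5 in the knock-out and 162.7 and 95 in the wild type, so Ccr9 was above all of them. The ratios were 0.10 and -0.20, with a mean of -0.05 ± 0.14 (SE, n = 2), a 95% interval of -0.38 to 0.28 and a limma adjusted p of 0.976. The genotypes overlapped. The normexp offset of 50 shrinks ratios of such dim probes towards 0, and with an offset of 16 the mean was -0.07.

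Ccr10, the receptor for Ccl27 and Ccl28 on IgA plasma cells, gave spot signals of 86.5 and 102.7 in the knock-out and 96.5 and 88.1 in the wild type. None of these was well above background by the scanner program, although each was brighter than at least 96.7% of the negative control spots of its channel. The ratio cannot be read at this level: it was 0.03 and 0.09 here, and -0.07 and 1.05 by the scanner program. Ccr1 had signals of 77.6 and 89.4 in the knock-out and 94.6 and 79.0 in the wild type. Ccr2 had 74.0 and 83.4 in the knock-out and 81.6 and 73.0 in the wild type, and in each channel it was brighter than at most 37.3% of negative controls. A difference between genotypes in these 3 receptors was not detectable at this signal.

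Ccr1 and Ccr2 are carried by monocytes. Of 12 markers of monocytes, macrophages and granulocytes, 9 were tested and 0 passed the threshold, and S100a8 and Csf3r were not well above background in either genotype on both arrays. Their summed intensity was 13250 and 9516 in the knock-out and 7810 and 11890 in the wild type, higher in the knock-out on array 1 and lower on array 2. The smallest p values belonged to Mpeg1, a macrophage perforin, with 0.46 and 0.44, Adgre1, a macrophage surface receptor, with -0.29 and -1.14, and S100a9, a granulocyte protein, with 0.92 and 0.00.

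**Figure D3:**
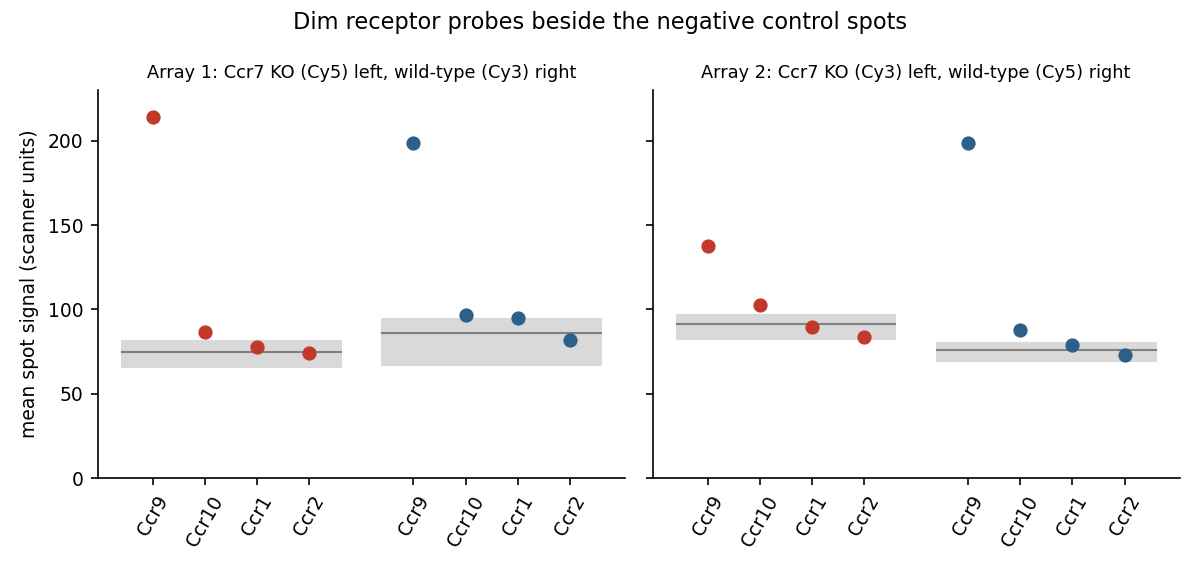
Mean spot signal, in scanner units, of the 4 dim receptors on array 1 (left panel) and array 2 (right panel), with knock-out points in red left of wild-type points in blue. The grey band runs from the lowest negative control spot to the 95th percentile of the 153 spots in that channel, and the line marks their median. Ccr9 stood above the band in every channel. Ccr10 also lay above it in every channel, but closer to its upper edge. Ccr1 and Ccr2 lay in the band or at its upper edge.

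The receptors also share positions. Ccr9, Ccr1 and Ccr2 lie with Cxcr6, Xcr1, Ccr1l1 and Ccr3 in a cluster of chemokine receptor genes on chromosome 9, where the 9 probes span 327 kb (123629914 to 123957067 on mm8). In this cluster 5 of 7 genes were tested, with mean log2 ratios between -0.26 and 0.22 and a lowest limma adjusted p of 0.641. The extremes were Cxcr6, a receptor of T and NK cells, with -0.14 and -0.38, and Xcr1, a receptor of cross-presenting dendritic cells, with 0.31 and 0.14. Cxcr6 was not well above background in the knock-out on array 2, so the filter kept it through the wild type alone. Within the cluster 2 genes were higher and 1 lower on both arrays, against 24.2% and 30% of all genes.

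Ccr10 lies on chromosome 11 (100990182 to 100990241 on mm8), 2.03 Mb from the Ccr7 probe. The strain name of the knock-out gives a 129P2 donor, so an effect of donor sequence beside the targeted allele and an effect of the loss of Ccr7 cannot be told apart for genes of this stretch. The nearest probe at lower coordinates, 11329 bases away, was that of Plekhh3, with ratios of 2.10 and 1.61 and a limma adjusted p of 0.0242. Of the other 9 neighbours, 8 were tested and 0 passed. By the brightest probe of each gene, those at lower coordinates were the tubulin genes Tubg2 (mean 0.32) and Tubg1 (0.07), the endoplasmic reticulum protein gene Retreg3 (-0.62) and Psmc3ip (-0.27). At higher coordinates they were Cntnap1 (0.13), the histone methyltransferase gene Ezh1 (-0.06), Ramp2 (-0.33), Vps25 (0.19) and Wnk4, which was not well above background. Ccr10 itself, the next gene above Plekhh3, was too dim to measure.

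The other 17 chemokine receptors and decoy receptors showed 0 genes past the threshold among 13 tested. Their median log2 ratio was 0.04, 5 were higher on both arrays and 4 lower on both, against 24.2% and 30% of all genes. Ccrl2 was the 1 gene past an unadjusted p of 0.05, with a mean of 0.42 ± 0.13 (SE, n = 2) and a limma adjusted p of 0.379. The next were Ackr3, a scavenger of Cxcl12, at -0.32 and Ackr2, a scavenger of inflammatory chemokines, at -0.30. Ackr3 and Cxcr6, among the 4 lower, were not well above background in the knock-out on array 2. The filter kept both through the wild type alone. Ccr3, among the 5 higher, was kept through the knock-out alone. Ccr4, Ccr8, Cxcr1 and Cxcr2 did not pass the filter on dim probes.

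Of 17 ligands of the 8 receptors and enzymes of the Gpr183 ligand, 11 were measured in these B-cell samples. None passed the threshold, and at an unadjusted p of 0.05 there were 2 higher and 2 lower, where 3.15% of all genes were higher and 5.97% lower. Cxcl12, the Cxcr4 ligand, cleared background in the knock-out on both arrays and in the wild type on neither. It is 1 of the 2 higher genes and was kept by the filter through the knock-out alone. With the wild type raised to the dimmest level well above background, its knock-out level was 1.38-fold higher, an estimate and not a lower limit. The log2 ratio of Cxcl12 had a 95% interval of 0.21 to 0.83 and a limma adjusted p of 0.298. The measured levels of Cxcl12 were 6.79 in the knock-out and 6.26 in the wild type, and its other probe did not pass the filter. Stromal and endothelial markers were at 2909 and 3258 in the knock-out and 2982 and 3334 in the wild type as a sum over 7 of 9 markers, lower in the knock-out by 0.04 and 0.03 (log2). Their median was 0.07, with 3 higher and 2 lower on both arrays, against 24.2% and 30% of all genes. The collagen gene Col1a2 was the 1 marker at an unadjusted p of 0.05, with 0.54 and 0.24 and a limma adjusted p of 0.454, and Cdh5, an endothelial cadherin, had -0.38 and -0.04. The part of these cells in the Cxcl12 value was not tested.

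Cxcl13, the Cxcr5 ligand, had ratios of 0.36 and 0.02. Of the inflammatory ligands, Ccl3 had -1.33 and -0.89, with a mean of -1.11 ± 0.15 (SE, n = 2) and a limma adjusted p of 0.0969. Ccl8, a monocyte-attracting chemokine, had 1.72 and 0.73 with an adjusted p of 0.177 in the same limma fit. Both genes lie on chromosome 11, as Ccr7 does, but their probes are far from that of Ccr7. On mm8 the probes start at 83464051 (Ccl3), 81932801 (Ccl8) and 98960289 (Ccr7). A part of this position in the 2 values, which differ in sign, was not tested. Of the oxysterol enzymes Hsd3b7 was measured, with 0.11 and -0.22, and Ch25h and Cyp7b1 did not pass the filter on dim probes.

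**Figure D4:**
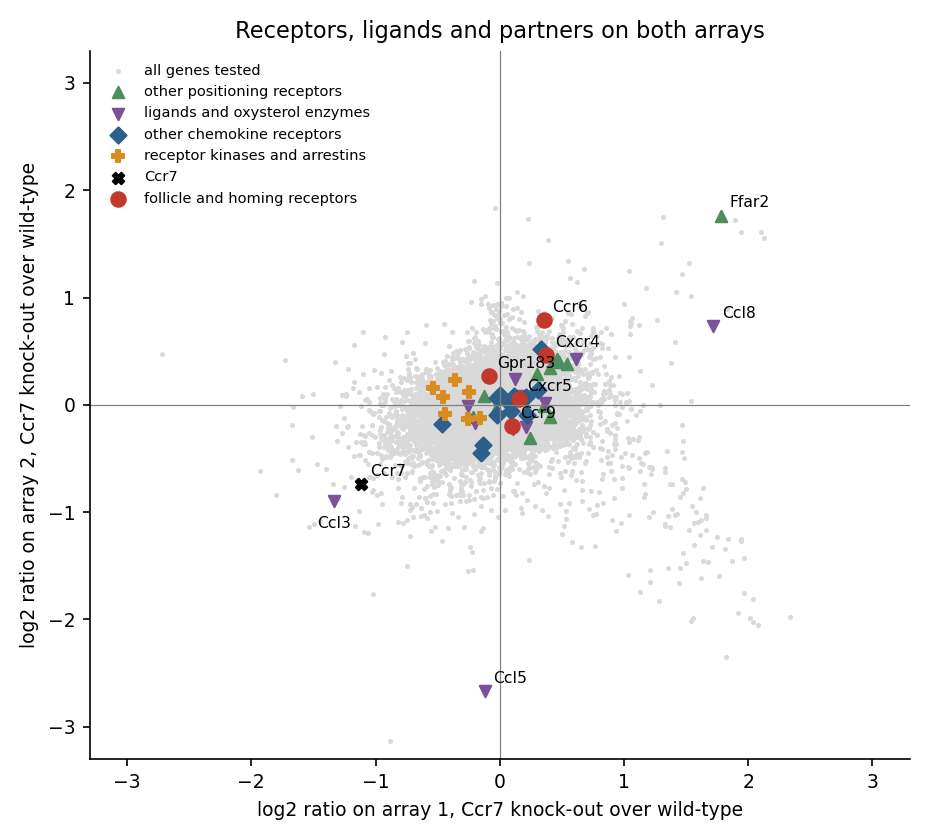
Log2 ratio (knock-out to wild-type) on array 1 (horizontal) and array 2 (vertical) for all 17687 genes tested (grey) and for the receptors and related lists (coloured). The 5 measured follicle and homing receptors (red circles) lay near the centre, with Ccr6 and Cxcr4 above 0 on both axes. Ffar2 and Ccl8 lay far to the upper right, Ccr7 and Ccl3 to the lower left, and Ccl5 far down, with -0.12 on array 1 and -2.67 on array 2.

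Other G-protein-coupled receptors that position lymphocytes or phagocytes had 6 members higher and 2 lower on both arrays, against 24.2% and 30% of all genes. Of 15, 12 were tested, and Ffar2, which senses short-chain fatty acids, was the 1 gene past the threshold. At an unadjusted p of 0.05, 5 were higher and 0 lower, where 3.15% of all genes were higher and 5.97% lower, and the median ratio was 0.23. Gpr132, 1 of the 2 lower on both arrays, was not well above background in the knock-out on array 2. The filter kept it through the wild type alone. After Ffar2 the smallest p values belonged to Cnr2, a cannabinoid receptor of B cells, and S1pr2, which confines B cells to germinal centres. Cnr2 had ratios of 0.54 and 0.38 with a limma adjusted p of 0.341, and a dimmer probe of it gave 0.50 and 0.59. S1pr2 had 0.46 and 0.43 with a limma adjusted p of 0.348, but its other tested probe gave -0.01 and -0.03.

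The kinases and arrestins that switch chemokine receptors off had ratios below 0 on average, and 0 of 7 passed the threshold. Their means ran from -0.26 to -0.06, with a median of -0.19, and 3 of 7 were lower on both arrays, against 30% of all genes. Grk2 had -0.44 and -0.08, Arrb1 -0.25 and -0.13, and Grk5 -0.45 and 0.07. On array 1 the list's median was -0.36 and on array 2 it was 0.07, so the median changed sign between the arrays. Another probe of Grk2 gave -1.04 and -0.46, and the dimmest 0.20 and -0.27.

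The direction of the measured receptors was compared under 12 other ways of processing the arrays. Ccr6 kept a positive mean in all 11 in which it was tested, from 0.09 to 0.58, and Ccr9 a negative one in all 12, from -0.27 to -0.03. Cxcr4 was positive in 11 of 12, with means from -0.08 to 0.69, and the highest value was the mean of its probes. The lowest adjusted p of Cxcr4 in any of these limma fits was 0.216, without genes that have a scaled-up channel.

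**Figure D5:**
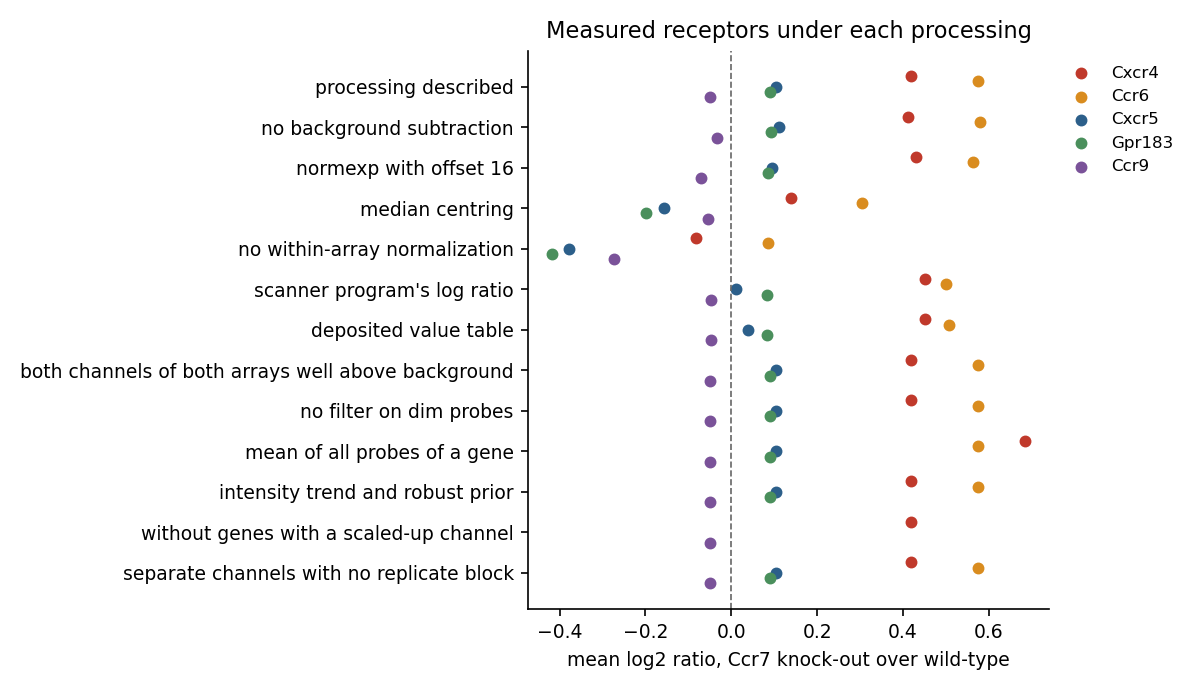
Mean log2 ratio, knock-out to wild-type (horizontal), for the 5 measured receptors under the processing described and 12 alternatives (rows). Cxcr4 and Ccr6 lay to the right of the other receptors in every row in which they were tested, and Cxcr5 and Gpr183 moved below 0 with median centring and with no normalization within arrays.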

How the data were processed

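Gene expression was measured on 2 two-colour arrays. The authors deposited spot intensity values, quantified with Agilent Feature Extraction 9.5.3.1 per the submitters' processing notes. Per the file headers, each file also holds a log10 ratio of Cy5 over Cy3 made by that program after its own background and dye corrections. The authors' deposited value table holds log2 ratios. It matched the program's ratio, with the knock-out on top, to within 0.001 at 42512 and 42515 of 43379 spots, and the 867 and 864 others carried the low-gain flag. Its column medians were 0. How the differing values arose is not stated.

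From the intensity values, background was corrected with normexp (offset 50) and ratios were normalized by loess within each array (span 0.3, 4 iterations; the 1639 control spots had weight 0), using limma 3.58.1 and R 4.3.3. Spots with an outlier flag were left out. A probe was kept where the knock-out or the wild type was well above background on both arrays, and a gene was represented by its brightest probe. Levels per channel were taken after Aquantile normalization between arrays. The limma fit (lmFit, eBayes) took the dye orientation as +1 or -1 and had 1 residual and 6.2 prior degrees of freedom. Tests were two-sided, with Benjamini-Hochberg adjustment over all genes. The fit was tested on simulated data. The closing section gives 12 alternatives. Names came from RefSeq accessions (24375 probes), symbols (6301), synonyms (2422) or the file (8076). All 9 receptor probes matched by accession.

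The named genes are the receptors, Ccr7, the Ccr10 neighbours and, from each list, genes past the threshold and the 3 with the smallest p (in marker lists, at most 3). Further genes named beside them (Hsd3b7, Ccl5, Cxcr6, Xcr1, Ccr3, Gpr132, 2 undetected myeloid markers and further probes) were chosen after their values were seen. The members and lists were chosen with earlier results of these data known.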

Additional observations from a re-analysis of the deposited data

How the results depend on the processing

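With 2 arrays, the signal over background limits the dim probes. The p-values rest on the spread between these pool pairs, which share a slide, and largely on a prior taken from all genes. The degrees of freedom were 1 residual and 6.2 prior. The spread between the sorted samples is not measured by these p-values. No receptor passed the threshold under any alternative. The 18 genes past it over all genes (12 higher, 6 lower) became 0 with no background subtraction, with no within-array normalization, from the ratio of the scanner program, from the deposited value table, with the mean of all probes and with separate channels with no replicate block. They became 4 with median centring (3 higher, 1 lower), 9 where all 4 channels had to be above background (9 higher, 0 lower), 78 when the prior was robust and followed intensity (30 higher, 48 lower) and 98 without genes with a scaled-up channel (35 higher, 63 lower). With no within-array normalization Cxcr4 turned to -0.0816, Cxcr5 to -0.38 and Gpr183 to -0.42. With median centring Cxcr5 turned to -0.16 and Gpr183 to -0.20. These settings moved the median of all genes to -0.39 and -0.17, and relative to it Cxcr5 lay at 0.02 and Gpr183 at -0.02 in both. With 1 array left out no test can be made: Gpr183 then had -0.0875 or 0.27, and Ccr9 -0.20 or 0.10. The cause of these changes was not tested. The replicate block is the array, which the ratios hold: with no replicate block the mean ratios were the same and the adjusted p of Cxcr4 was 0.9998.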
